A study of Mus musculus with 8 samples.

Results

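The genes of prolactin and growth hormone signalling were followed through 3 populations of mouse islet cells. They were 9 genes chosen by name from 46955 uniquely named entries: the receptors Prlr and Ghr, the kinase Jak2, the transcription factors Stat5a and Stat5b, and the feedback genes Cish, Socs1, Socs2 and Socs3. All 9 had reads in every library and passed the filter on low values, which was an RPKM (reads scaled by gene length and by library size) of at least 1 in at least 2 of 8 libraries. Prlr passed only through its beta and transdifferentiated libraries, since no alpha library reached 1 RPKM.

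The study sorted cells from the islets of adult mice by flow cytometry and sequenced their RNA, to set beta cells that arose from alpha cells beside the beta and alpha cells of the same islets. The animals were described as triple transgenic, with the alleles Ins1-H2b-mCherry, Gcg-cre and a floxed YFP, so by this description the groups shared 1 genotype and were set apart by the sort. Beta cells (3 libraries, 2 female and 1 male) were positive for mCherry, alpha cells (3 libraries, 2 male and 1 female) were positive for YFP, and transdifferentiated cells (2 libraries, 1 of each sex) were positive for both. Each library came from islets pooled from 10 to 12 animals of 1 sex, cultured overnight in RPMI with 5.5 mM glucose and 10% fetal bovine serum. The Gcg-cre mark records that the glucagon promoter was once active in a cell or its ancestors and does not show that it was active at the sort. The mCherry reporter is driven by the Ins1 promoter. The design text also mentions bitransgenic females, which it does not tie to named libraries.

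Prolactin, the placental lactogens and growth hormone act through receptors of the class I cytokine family, which have no kinase of their own and carry JAK2 on their inner tail. A bound receptor lets JAK2 phosphorylate STAT5A and STAT5B, which pair, enter the nucleus and bind DNA. CISH and the SOCS proteins are made in response and damp the signal. In beta cells the lactogens are known for driving growth of the beta cell mass and insulin release in pregnancy.

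The transdifferentiated libraries were shallow. Read numbers, worked out from step sizes in the table, were 1260870 and 2196621 in the transdifferentiated libraries and 13057865 to 21694264 in the others. A single read of a gene 2 kb long equalled 0.402 and 0.231 RPKM in the former and 0.0234 to 0.0387 RPKM in the latter. The sorted cells carried the markers of their labels. The summed RPKM of 8 beta cell markers was 186200 to 242500 in beta, 140000 to 147500 in transdifferentiated and 2492 to 3188 in alpha libraries, and that of 7 alpha cell markers was 642 to 1989, 20240 to 20350 and 175900 to 204300. Some replicate libraries share a title number and differ by an added letter b (beta replicates 1 and 2, alpha replicates 1 and 2). Nothing in the labels says whether these came from separate pools, so p-values measure the spread between libraries, which may be technical. No pair of replicates agreed within sampling noise: the chi-square per degree of freedom of their reads was 3.54 between the transdifferentiated libraries and 12.3 to 35.6 for all other pairs. This value grows with read number at equal relative spread, so shallow and deep pairs cannot be ranked by it. The pairs that share a title number stood at 33.7 (beta) and 32.1 (alpha).

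**Figure D1:**
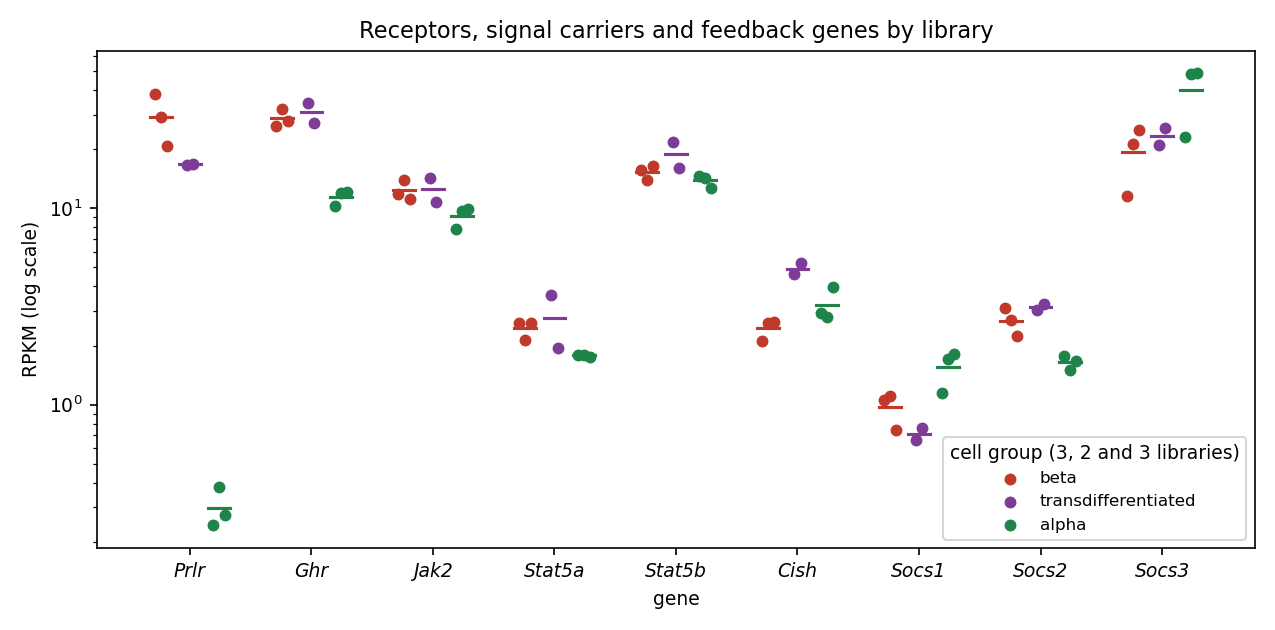
RPKM of the 9 genes on a log axis, with 1 point for each library and a bar at the mean of each cell group (3 beta, 2 transdifferentiated and 3 alpha libraries). The alpha points of Prlr lie between 0.242 and 0.379 RPKM, far under every other point of that gene, while the groups lie close together for Jak2 and Stat5b.

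Prlr encodes the prolactin receptor, which also binds the placental lactogens. The gene lies at chr15:10177238-10349180 on the plus strand of GRCm38. Its RPKM was 38.2, 29.2 and 20.8 in beta replicates 1 to 3, 16.7 and 16.8 in the transdifferentiated replicates, and 0.242, 0.379 and 0.273 in the alpha replicates. No 2 groups overlapped, and the order of levels was beta, transdifferentiated, alpha. The beta mean of 29.4 RPKM ± 8.72 (SD, n = 3) was 98.6 times the alpha mean of 0.298 ± 0.0716 (SD, n = 3). The alpha values rested on 48, 78 and 59 reads.

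Against beta cells, Prlr was lower in alpha cells, and limma put the log2 fold change at -5.11 (SE 0.20, adjusted p = 5.14e-06). The log2 values here are of RPKM + 0.5, which understates the change of so low a level. On recovered reads the change was larger, at -6.48 (adjusted p = 1.45e-06) by voom, a limma method that weights values by the precision their read number gives. Prlr passed the threshold in alpha against beta cells in each of 18 alternative analyses. Prlr in alpha libraries stood at 1.01% of its beta mean. Of the 8 beta cell markers, Ins1 (0.667%), Ins2 (0.712%), Ucn3 (0.818%) and Mafa (0.801%) stood lower. Slc2a2 (1.576%), Pdx1 (3.527%), Iapp (4.135%) and Nkx6-1 (9.446%) stood higher. The part of RNA or cells carried over from beta cells in the alpha values of Prlr was not tested.

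The transdifferentiated mean of Prlr was 16.8 RPKM ± 0.0922 (SD, n = 2), which was 57.1% of the beta mean and 56.3 times the alpha mean. Here, as for every gene of these bulk libraries, fewer cells with the RNA and less RNA in each cell cannot be told apart. The beta cell markers stood at 34.8% (Mafa) to 84.6% (Pdx1) of their beta means in these libraries, with Ins1 at 59.8% and Ins2 at 65.5%. Against alpha cells Prlr was higher by 4.40 on the log2 scale (SE 0.22, limma adjusted p = 3.58e-05, voom adjusted p = 8.97e-06), and it passed in all 18 alternatives. Against beta cells both libraries lay under all 3 beta libraries, but the log2 fold change of -0.71 (95% interval -1.22 to -0.20) did not pass (limma adjusted p = 0.0739). It passed in 1 of 18 alternatives, at -0.88 with median-ratio scaling (limma adjusted p = 0.0423), and voom gave -0.72 (adjusted p = 0.0765). With voom and median-ratio scaling together, added after seeing the data, it passed at -0.89 (adjusted p = 0.0369). Over all 18 the adjusted p ran from 0.0423 to 0.243.

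Summed markers of immune cells were highest in beta libraries, as Prlr was. The summed RPKM of 10 such markers was 97.7 to 115 in beta, 21.4 to 36 in transdifferentiated and 10.2 to 29.3 in alpha libraries. In this sum Cd68 was 10.9 and 14.7 RPKM in transdifferentiated and 6.96, 23.9 and 8.13 RPKM in alpha libraries. The means of Cd74, H2-Aa, H2-Ab1, H2-Eb1, Ctss, Lyz2 and Csf1r had the order of Prlr, namely beta, transdifferentiated, alpha. Those of Cd74 were 35.4, 7.29 and 1.91 RPKM. The means of Cd68, Ptprc and Adgre1 were lowest in transdifferentiated cells, with Ptprc and Adgre1 at 0 in both libraries. Their part in the Prlr levels was not tested.

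Of the 3 Prlr transcription starts in the RefSeq table of GRCm38.p6, the 250 bases before the first and the second are shown, since Prlr had the largest change of the 9 genes in both comparisons with alpha cells. Capitals mark the letters TTCNNNGAA, the core sequence that STAT5 is known to bind, which read the same on both strands. The first window is chr15:10176988-10177237 and the second is chr15:10223656-10223905, both on the plus strand.
Prlr start 1: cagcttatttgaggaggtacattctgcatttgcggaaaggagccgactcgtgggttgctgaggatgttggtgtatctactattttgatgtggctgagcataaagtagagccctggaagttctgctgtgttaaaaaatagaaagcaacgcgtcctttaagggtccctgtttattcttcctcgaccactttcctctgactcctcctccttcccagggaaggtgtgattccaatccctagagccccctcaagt
Prlr start 2: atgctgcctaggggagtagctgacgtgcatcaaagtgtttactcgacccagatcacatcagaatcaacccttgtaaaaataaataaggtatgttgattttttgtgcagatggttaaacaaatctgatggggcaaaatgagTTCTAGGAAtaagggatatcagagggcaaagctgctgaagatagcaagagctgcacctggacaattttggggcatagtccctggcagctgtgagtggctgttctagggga
The second window holds TTCTAGGAA, whose first base lies 110 bases before the start, and the first window and that of the third start hold none. Of 32851 windows of 250 bases, 2306 (7.02%) hold at least 1 such stretch. The deposited values are summed over a gene, so reads from the 3 starts were not separated.

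Ghr encodes the growth hormone receptor and lies at chr15:3317760-3583492 on the minus strand. Its RPKM was 26.2, 32.2 and 28 in beta, 34.4 and 27.4 in transdifferentiated, and 10.3, 11.9 and 12.1 in alpha libraries. Beta and transdifferentiated libraries overlapped, and all alpha libraries lay under both. The means were 28.8 ± 3.07 (SD, n = 3), 30.9 ± 5.0 (SD, n = 2) and 11.4 ± 0.979 (SD, n = 3), so the alpha mean was 39.7% of the beta mean. Against beta cells the log2 fold change in alpha cells was -1.30 (SE 0.13, limma adjusted p = 0.000334). Against alpha cells that of the transdifferentiated cells was 1.39 (SE 0.14, limma adjusted p = 0.000687, voom adjusted p = 0.000383). Both calls held in all 18 alternatives. Between transdifferentiated and beta cells the estimate was 0.09 with an interval of -0.25 to 0.43, and the threshold was not passed (limma adjusted p = 0.701).

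Alpha libraries had little Prlr for their Ghr. The ratio of Prlr to Ghr RPKM within a library was 1.46, 0.905 and 0.743 in beta cells, 0.485 and 0.616 in transdifferentiated cells, and 0.0235, 0.0318 and 0.0226 in alpha cells. The 3 groups did not overlap. Per unit of length, nearly all receptor RNA of the pair in alpha libraries was Ghr.

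**Figure D2:**
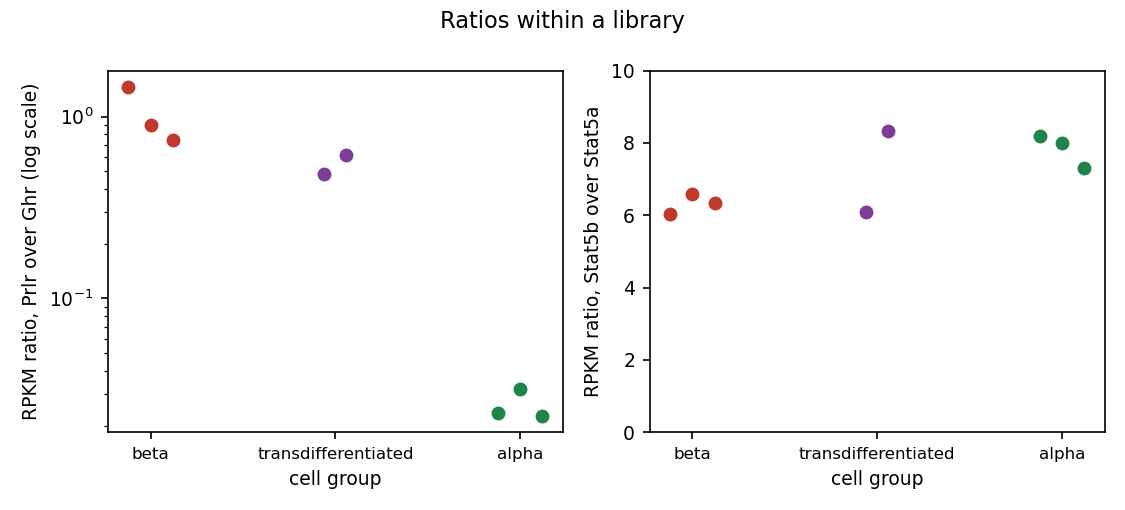
Ratio of RPKM within each library, by cell group, for Prlr over Ghr (left, log axis) and Stat5b over Stat5a (right, linear axis from 0), with 1 point for each library. The Prlr to Ghr ratio falls from 0.743 or more in beta libraries to 0.0318 or less in alpha libraries, and the Stat5b to Stat5a ratio lies between 6.04 and 8.33 in all 8.

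Jak2, the kinase of both receptors, lies at chr19:29251828-29313080 on the plus strand. Its RPKM was 11.9, 14.0 and 11.2 in beta, 14.4 and 10.8 in transdifferentiated, and 7.82, 9.70 and 9.89 in alpha libraries. All alpha libraries lay under all beta libraries, but the log2 fold change of -0.41 (SE 0.16) did not pass in limma (adjusted p = 0.0754). It passed in 5 of 18 alternatives. Among these, the fit of only these groups and the fits without a transdifferentiated library gave the same estimate of -0.36, so they do not count separately. Transdifferentiated and beta libraries overlapped, and the difference was 0.02 with an interval of -0.38 to 0.43. Against alpha cells the transdifferentiated value was 0.43 (SE 0.17, limma adjusted p = 0.101), which did not pass.

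Stat5b was the more abundant of the STAT5 genes per length in every library. The neighbouring genes lie at chr11:100780731-100850724 on the minus strand (Stat5b) and chr11:100859351-100885169 on the plus strand (Stat5a). Stat5a RPKM was 2.61, 2.13 and 2.59 in beta, 3.6 and 1.94 in transdifferentiated, and 1.79, 1.80 and 1.75 in alpha libraries. The transdifferentiated values of Stat5a rested on 32 and 30 reads. Stat5b RPKM was 15.8, 14.0 and 16.4 in beta, 21.9 and 16.2 in transdifferentiated, and 14.7, 14.4 and 12.8 in alpha libraries. The ratio of Stat5b to Stat5a was 6.04, 6.60 and 6.34 in beta, 6.08 and 8.33 in transdifferentiated, and 8.19, 8.00 and 7.31 in alpha libraries. Of the 50-base stretches of their exons, 8.21% of those in Stat5a and 11% of those in Stat5b occur in both genes, so reads from these could be split between them.

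Neither STAT5 gene passed between alpha and beta cells in the main test. The log2 fold change was -0.45 (SE 0.19, limma adjusted p = 0.0973) for Stat5a and -0.22 (SE 0.10, adjusted p = 0.114) for Stat5b. Stat5a passed in 3 of 17 alternatives, with voom among them (adjusted p = 0.0233), and Stat5b in 0 of 18. Stat5b was higher in transdifferentiated than in alpha cells, by 0.46 (SE 0.11, limma adjusted p = 0.0168). The median of all 13172 genes tested was 0.17 in that comparison, and with median-ratio scaling, which moved it to -0.05, Stat5b stood at 0.23 and no longer passed (limma adjusted p = 0.190). The call was lost in 7 of 18 alternatives, among them the fits without transdifferentiated replicate 1 (limma adjusted p = 0.115) and without alpha replicate 3 (0.0541). It held with voom (adjusted p = 0.0341) and was lost with voom and median-ratio scaling together (adjusted p = 0.324). Stat5a did not pass against alpha cells (0.52, SE 0.21, limma adjusted p = 0.103), nor did either gene against beta cells (0.07 for Stat5a and 0.25 for Stat5b).

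**Figure D3:**
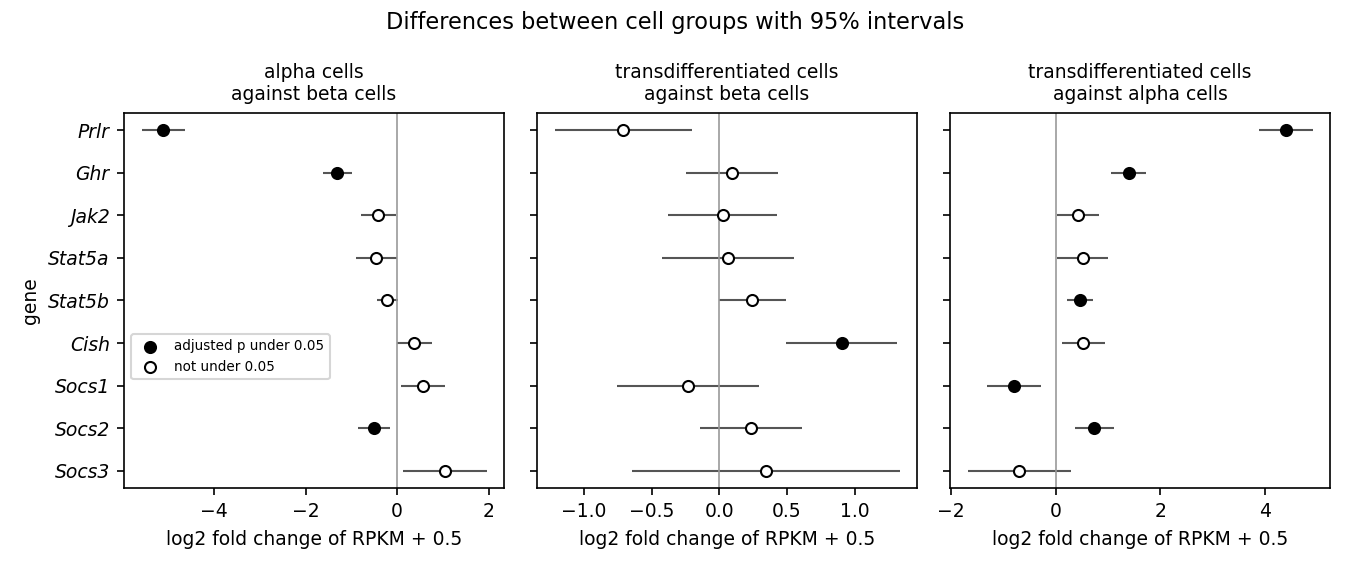
Log2 fold change of RPKM + 0.5 for the 9 genes in 3 comparisons, as points with 95% intervals from limma. Filled points passed an adjusted p of 0.05: 3 of 9 genes in alpha against beta, 1 of 9 in transdifferentiated against beta and 5 of 9 in transdifferentiated against alpha cells. The horizontal axes differ in range.

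Counted over the 9 genes, 3 passed as lower in alpha than in beta cells (Prlr, Ghr and Socs2) and none as higher, beside 43.6% of all genes tested that passed in either direction, 26.7% as lower and 16.9% as higher. In transdifferentiated against beta cells 1 of 9 passed, Cish as higher, beside 12% of all genes (9.1% higher, 2.9% lower). In transdifferentiated against alpha cells 4 of 9 passed as higher (Prlr, Ghr, Stat5b and Socs2) and 1 as lower (Socs1), beside 29.9% of all genes (23.2% higher, 6.67% lower). Counted in either direction, the numbers against beta cells are no higher than the background gives. Nothing is read from the counts by direction or from those against alpha cells. With median-ratio scaling the higher share of all calls was 47.8% in place of 38.8% in alpha against beta, 47.3% in place of 75.8% in transdifferentiated against beta, and 49.7% in place of 77.6% in transdifferentiated against alpha cells. With quantile normalization these shares were 50%, 55.2% and 49.9%. The groups did not overlap in 7 of 9 genes between alpha and beta cells (60.6% of all genes), in 2 of 9 between transdifferentiated and beta cells (46.3%) and in 8 of 9 between transdifferentiated and alpha cells (53%).

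Cish, an early STAT5 target whose product binds the activated receptors, was highest in the transdifferentiated cells. The gene lies at chr9:107296026-107302784 on the plus strand. Its RPKM was 4.63 and 5.25 in transdifferentiated libraries, 2.12, 2.61 and 2.65 in beta libraries and 2.92, 2.80 and 3.99 in alpha libraries. No 2 groups overlapped, and the order of levels was transdifferentiated, alpha, beta. The transdifferentiated values rested on 37 and 73 reads, whose exact Poisson 95% intervals, for counting error only, were 3.26 to 6.38 and 4.11 to 6.60 RPKM. The lower bound of the former reached under the highest alpha library.

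Against beta cells the log2 fold change of Cish was 0.91 (SE 0.18, limma adjusted p = 0.0236, voom adjusted p = 0.0517). It stayed positive in all 18 alternatives and missed the threshold in 9, with adjusted p from 0.0170 to 0.0968. Among these were all 5 fits that left out a transdifferentiated or a beta library (limma adjusted p = 0.0527 to 0.0683). Against alpha cells the value was 0.53 (SE 0.18, limma adjusted p = 0.0583), which did not pass, so Cish was not among the 2.39% of genes called higher than in both references. Between alpha and beta cells it was 0.38 (SE 0.16, adjusted p = 0.0996), and it passed there in 1 of 18 alternatives, voom (adjusted p = 0.0403). Of the exon bases of Cish, 11.5% overlap the antisense genes Gm17040 and Gm17041, and the kit does not mark strand, so reads of the overlap cannot be told apart. Markers of other cells were also high in these libraries. The summed RPKM of 4 delta cell markers was 2967 to 3096 in transdifferentiated, 312 to 891 in beta and 1371 to 3197 in alpha libraries. That of 3 PP and epsilon cell markers was 8249 to 11440, 590 to 1274 and 7961 to 13030. That of 6 endothelial markers was 5.30 to 11.4, 3.08 to 4.97 and 4.48 to 6.80, with none at 0 in a whole group. Their part in the Cish levels was not tested.

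Socs2, a growth hormone target whose product limits growth hormone receptor signalling, lies at chr10:95385362-95417180 on the minus strand. Its RPKM was 3.09, 2.69 and 2.23 in beta, 3.04 and 3.24 in transdifferentiated, and 1.76, 1.5 and 1.67 in alpha libraries. All alpha libraries were the lowest, and beta and transdifferentiated libraries overlapped. In alpha against beta cells the log2 fold change was -0.51 (SE 0.15, limma adjusted p = 0.0291). This call was lost in 6 of 18 alternatives, namely with no filter and without beta replicate 1, 2 or 3 or alpha replicate 2 or 3, with an adjusted p of up to 0.181. In transdifferentiated against alpha cells it was 0.74 (SE 0.16, limma adjusted p = 0.0135, voom adjusted p = 0.0197, and 0.0936 for voom with median-ratio scaling). That call was lost in 5 of 18, among them the fits without transdifferentiated replicate 1 (limma adjusted p = 0.0612) and without alpha replicate 3 (0.0699).

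Cish and Socs2 are both STAT5 targets. The ratio of Socs2 to Cish was 1.46, 1.03 and 0.842 in beta libraries, 0.655 and 0.618 in transdifferentiated libraries and 0.604, 0.537 and 0.418 in alpha libraries. Each beta library was above every other library, and the transdifferentiated libraries were just above the alpha libraries. The difference between the genes was not tested.

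Socs1, whose product inhibits JAK kinases directly and is best known downstream of interferons, lies at chr16:10782240-10785536 on the minus strand. It was near the limit of detection in the transdifferentiated cells. Its RPKM was 0.659 and 0.756 there, from 1 and 2 reads, against 1.05, 1.11 and 0.743 in beta and 1.14, 1.71 and 1.80 in alpha libraries. The limma log2 fold change against alpha cells was -0.79 (SE 0.22, adjusted p = 0.0342). The ratio of pooled reads, 3 against 77, was 0.462 with an exact 95% interval of 0.0932 to 1.40 for counting error only, so the reads did not show a difference. By voom the adjusted p was 0.316, and the call was lost in 11 of 17 alternatives, among them each fit without a transdifferentiated or a beta library and without alpha replicate 2 or 3 (limma adjusted p = 0.0582 to 0.122). Between alpha and beta cells Socs1 stood at 0.56 (SE 0.21, limma adjusted p = 0.0617), which did not pass, and it passed in 4 of 17 alternatives. Among these, the fit of only these groups and the fits without a transdifferentiated library gave the same estimate of 0.58, so they do not count separately.

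Socs3, whose product binds JAK kinases and the shared receptor of the interleukin 6 family, was the most abundant feedback gene per length. It lies at chr11:117966079-117970047 on the minus strand. Its RPKM was 11.5, 21.3 and 25.2 in beta, 21.1 and 25.8 in transdifferentiated, and 23.2, 48.5 and 48.9 in alpha libraries. All 3 groups overlapped. The alpha mean was 40.2 ± 14.7 (SD, n = 3) and the beta mean 19.3 ± 7.04 (SD, n = 3), and the log2 fold change of 1.04 (SE 0.39) did not pass (limma adjusted p = 0.0657). It passed in 7 of 18 alternatives, voom among them (adjusted p = 0.0436). Against the transdifferentiated cells neither reference passed (0.34 against beta, adjusted p = 0.610, and -0.70 against alpha, adjusted p = 0.253, by limma).

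The spread of Socs3 followed the letter in the titles. This split was chosen after its values were seen. In libraries without the letter Socs3 was 11.5 RPKM in beta, 23.2 in alpha and 23.5 on average in transdifferentiated cells, and in libraries with the letter b its means were 23.2 in beta and 48.7 in alpha cells. The alpha to beta ratio was 2.02 without the letter and 2.10 with it. With the letter as a further term, Socs3 passed in alpha against beta cells (limma adjusted p = 0.000917) and in transdifferentiated against beta cells (log2 fold change 1.02, adjusted p = 0.0125). Without the letter the transdifferentiated mean was 2.04 times the beta and 1.01 times the alpha library. The letter itself gave a log2 difference of 1.01 (SE 0.12, unadjusted p = 0.000104) that did not pass over all genes (limma adjusted p = 0.114). In that contrast limma called 0 of 13172 genes, and 1275 had an unadjusted p under 0.05. The other 8 genes had an adjusted p of 0.66 to 0.94. The sources used here do not say what the letter stands for, and both transdifferentiated libraries lack it. Markers of acinar cells, the enzyme-making cells around the islets, were also higher with the letter in both references. The summed RPKM of 6 such markers was 109 in beta replicate 1 and 38.1 in alpha replicate 1, which lack the letter. With the letter it was 3227 and 1487 in beta replicates 2 and 3, and 2268 and 579 in alpha replicates 2 and 3. Within each of these pairs the library with the higher sum had the lower Socs3 value. In transdifferentiated replicates 1 and 2, which also lack the letter, the sum was 828 and 291. None of the 6 was at 0 in a whole group. The part of acinar cells in the Socs3 values was not tested.

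**Figure D4:**
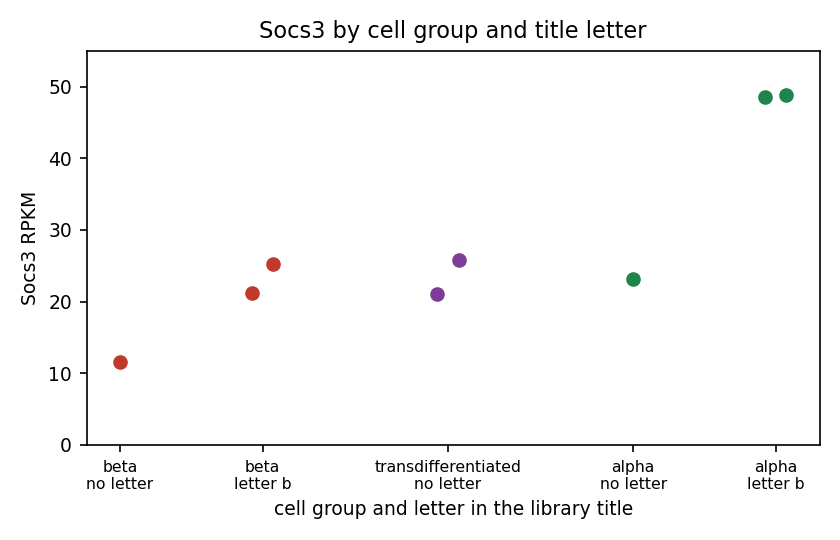
Socs3 RPKM on a linear axis from 0, with 1 point for each library, by cell group and by the letter b in the library title. Libraries with the letter lie at 21.3 and 25.2 RPKM in beta and at 48.5 and 48.9 RPKM in alpha cells, above the single library without it in each group (11.5 and 23.2 RPKM).

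The window before the Socs3 start is the other one of those searched that holds TTCNNNGAA. It is shown as a stretch of 29 bases at chr11:117969502-117969530 on the minus strand of GRCm38.p6, whose capitals begin 154 bases before the start.
Socs3: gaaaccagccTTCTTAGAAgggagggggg
The windows of Ghr, Jak2, Stat5a, Stat5b, Cish and Socs1 hold no such letters, which says nothing of STAT5 binding elsewhere.

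None of the genes passed between sexes. In male against female libraries limma called 0 of 9, beside 0.0456% of all genes (0.038% higher and 0.00759% lower), and voom on reads called 0 of 9. At an unadjusted limma p under 0.05 there was 1, Stat5b (0.23 higher in males, adjusted p = 0.843). The difference of alpha against beta cells was not shown to differ between sexes for any of the 9 at the threshold by limma or voom (0% of all genes by limma), and 0 had an unadjusted limma p under 0.05. For Prlr the interval of that sex difference was -0.08 to 1.55, from 1 or 2 libraries for each sex and group.

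RNA of the ligands, hormones of the pituitary and placenta, was at or near 0. Prl, Gh and Ghrh had 0 reads in every beta and transdifferentiated library and at most 2, 2 and 1 reads in an alpha library. In the transdifferentiated libraries a count of 0 allows up to 1.35 and 0.777 RPKM of Prl and 2.80 and 1.60 RPKM of Gh (3 reads, counting error only). The placental lactogen genes Prl3b1 and Prl3d1, and Prl2c2, a gene of the same family that encodes proliferin, were listed at 0 in all libraries. Ghrl, which encodes ghrelin, a releaser of growth hormone, was higher in alpha than in beta cells (means 1.75 and 0.244 RPKM, log2 fold change 1.41, limma adjusted p = 0.020).

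The counts of the next lists stand beside the shares of all genes tested given above. Each call named in these lists in which transdifferentiated cells entered also passed with voom, except Lifr (voom adjusted p = 0.0510) and Ptpn6 (0.194). Of 15 other cytokine receptor genes 7 were tested. Alpha cells had more Ifnar2, an interferon receptor chain (0.44, limma adjusted p = 0.0319) and Il6st, the shared interleukin 6 family chain (0.42, adjusted p = 0.0333), and less Ifngr1, the interferon gamma receptor (-0.62, adjusted p = 0.0465) than beta cells. In transdifferentiated against beta cells 0 of 7 passed. Against alpha cells Ifngr1 was higher (1.0, limma adjusted p = 0.0153) and Il6st (-0.61, adjusted p = 0.0160) and Lifr, the leukaemia inhibitory factor receptor (-0.55, adjusted p = 0.0239), were lower.

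Of 7 tested JAK and STAT genes other than the members, 2 fell in alpha against beta cells and none rose, beside 26.7% lower and 16.9% higher over all genes. These were Jak1 (22.6 against 37.9 RPKM on average, limma adjusted p = 0.00235) and Stat3 (37.8 against 61.6, adjusted p = 0.00188). Both were higher in transdifferentiated than in alpha cells, by 0.47 (limma adjusted p = 0.0267) and 0.54 (adjusted p = 0.0113), and 0 of 7 passed against beta cells. Of 14 tested SOCS, PIAS, phosphatase and SH2B genes other than the members, 2 rose and 2 fell in alpha against beta cells. The phosphatases Ptpn11 (-0.96, limma adjusted p = 0.000394) and Ptpn6 (-0.61, adjusted p = 0.00158) were lower, and Pias1, which restrains STAT proteins, was higher (0.68, adjusted p = 0.00957). Pias1 was also higher in transdifferentiated than in beta cells (0.87, limma adjusted p = 0.0205). Against alpha cells Ptpn11 (0.67, limma adjusted p = 0.00472) and Ptpn6 (0.32, adjusted p = 0.0422) were higher in transdifferentiated cells, and none was lower.

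Of 13 adaptors and effectors, 1 rose and 6 fell in alpha against beta cells, beside 16.9% higher and 26.7% lower over all genes. Gab1, a docking protein, rose from 0.646 to 4.04 RPKM on average (limma adjusted p = 8.05e-05), and Pik3r1, a regulatory subunit of PI3 kinase, fell from 12.9 to 4.33 RPKM (adjusted p = 0.000244). Shc1, an adaptor, fell by 0.94 on the log2 scale (limma adjusted p = 0.000382). In transdifferentiated against beta cells Gab1 was higher (0.90, limma adjusted p = 0.0201) and Shc1 lower (-0.56, adjusted p = 0.0235). Against alpha cells Pik3r1 and Akt1 were among 3 that were higher and Gab1 was the 1 that was lower.

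Genes known to respond to lactogens or growth hormone were more often lower than higher in alpha cells. Of 24 listed, 18 were tested, and in alpha against beta cells 10 were lower and 3 higher, beside 26.7% and 16.9% of all genes, with a median log2 fold change of -0.59 against -0.05 over all genes. Tnfrsf11b, which encodes osteoprotegerin and rises with prolactin in beta cells, fell from 7.42 to 0.657 RPKM (limma adjusted p = 3.70e-05). Slc2a2, the glucose transporter GLUT2 and also one of the beta cell markers, fell from 45.9 to 0.724 RPKM (adjusted p = 7.08e-06). In transdifferentiated against alpha cells limma called 10 of 18 higher and 3 lower, beside 23.2% and 6.67% of all genes. By voom 8 were higher and 2 lower, beside 2180 and 361 of all 13172 genes. The limma median was 0.52 against 0.17 over all genes, and among those higher were Slc2a2 (4.13) and Matn2 (2.71).

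In transdifferentiated against beta cells limma called 3 of the 18 higher and 2 lower, beside 9.1% and 2.9% of all genes. By voom 2 were higher and 2 lower, beside 660 and 96 of all 13172 genes. The limma median was -0.13 against 0.09 over all genes. Igfals, the acid-labile subunit that carries insulin-like growth factors, fell by 0.82 on the log2 scale (34.6 to 19.7 RPKM, limma adjusted p = 0.00539), and Slc2a2 by 1.17 (adjusted p = 0.0285). Cdkn1b, a cell cycle inhibitor, and Grb10, an adaptor that restrains insulin signalling, rose by 0.53 (limma adjusted p = 0.0186) and 0.67 (adjusted p = 0.0245), and these were chosen after their values were seen. Tph1, the serotonin synthesis gene that rises in islets of pregnant mice, had 0 reads in both transdifferentiated libraries (up to 0.328 and 0.188 RPKM allowed by 3 reads), 6, 6 and 0 reads in beta and 14, 12 and 18 reads in alpha libraries.

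**Figure D5:**
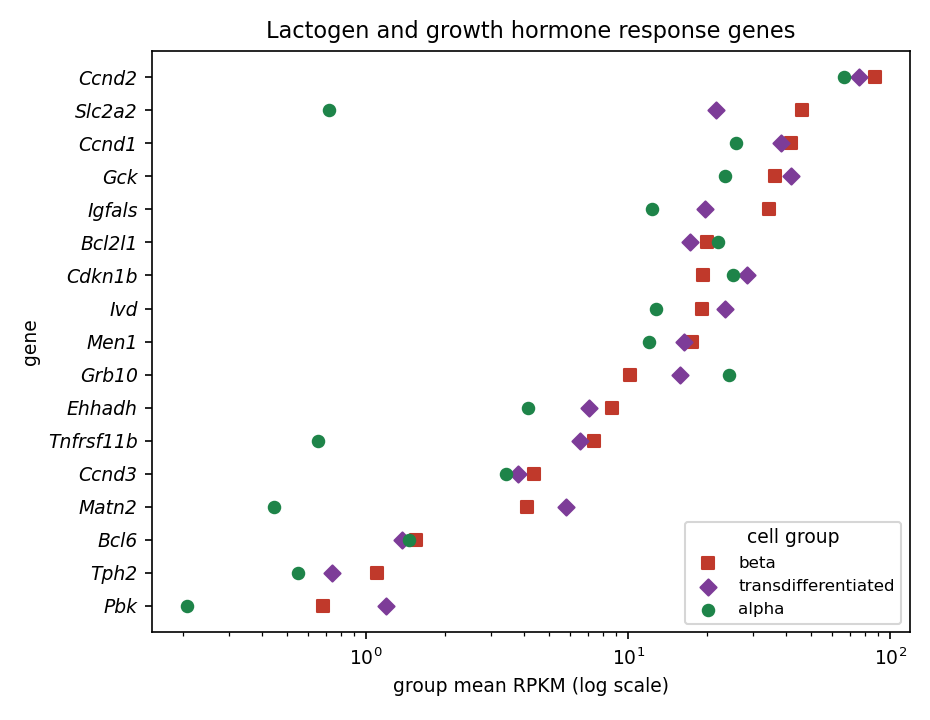
Mean RPKM on a log axis of tested genes known to respond to lactogens or growth hormone, with 1 of the 18 not drawn, by cell group (squares beta, diamonds transdifferentiated, circles alpha), ordered by the beta mean. Slc2a2 runs from 0.724 RPKM in alpha to 45.9 RPKM in beta cells, and Tnfrsf11b from 0.657 RPKM in alpha to 7.42 RPKM in beta cells.

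Likeness of pattern was measured as Pearson's r of log2(RPKM + 0.5) over the 8 libraries, among 13171 other genes. These values describe libraries that share group, depth and preparation, and carry no test. Closest to Prlr were Atp6v1c1, Pde5a and Cabp1 (r = 0.998 each). Closest to Ghr were Dnajc10 (0.996), Slc7a14 (0.994) and Dcdc2a (0.994). Closest to Cish were Eps8l1 (0.982), Stk19 (0.979) and Ap5z1 (0.976).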

How the data were processed

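RNA sequencing values of 8 libraries were used, as RPKM deposited by the authors in 1 table for the whole series. The submitters' processing notes name STAR 2.5 and featureCounts, and edgeR 3.14.0 for the authors' work, with build GRCm38.p4. Strand setting and annotation were not given in the sources used here. The kit was TruSeq RNA v2, per the labels' protocols. Of 46959 entries, 4 with repeated names were left out.

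The main test was limma 3.58.1 in R 4.3.3 (lmFit, eBayes with a trend) on log2(RPKM + 0.5) over 13172 genes with at least 1 RPKM in at least 2 libraries, with terms for cell group and for sex, and Benjamini-Hochberg adjustment (threshold 0.05). Residual degrees of freedom were 4, and 2 in the fit of the sex difference. Whole reads were recovered from the steps of the RPKM values, within 0.01 of a read: 19907 of 25349 symbol-matched expressed genes (78.5%) were whole with exon lengths of GENCODE release M21 on GRCm38, and a further 6878 lengths were solved from the steps (Socs1 among them, 1220 bases). The implied library size was 0.986 to 0.989 of the recovered reads. limma's voom was run on these reads, scaled by their totals. Tested on simulated data, limma on log2 RPKM called unchanged genes too often where the shallow transdifferentiated libraries entered, and voom did so less often, so voom's value is given beside those calls of the 9 genes. Python 3.11.15, pandas 2.3.3 and scipy 1.17.1 were used for summaries.

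The 9 genes and the other lists were chosen with earlier results of these data known. From each other list, up to 3 called genes with the largest change and a mean of 1 RPKM or more in the higher group were named for each comparison (1 gene that the rule names is not reported here), every ligand with its level, and for Prlr, Ghr and Cish the 3 genes most alike in pattern. Alternatives were other pseudocounts, filters, scalings, terms and tests, and each library left out in turn. In alpha against beta cells, leaving out a transdifferentiated library gave the same estimates as fitting only those groups, so these alternatives are not separate. Added after seeing the data were voom with median-ratio scaling and blocks of libraries alike in sex and letter, which are not in the counts of alternatives. Promoter windows came from RefSeq (GRCm38.p6), in which 8 of the 9 genes were matched. They are Prlr, Ghr, Jak2, Stat5a, Stat5b, Cish, Socs1 and Socs3.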

Additional observations from a re-analysis of the deposited data

How the results depend on the processing

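Precision was limited by 2 or 3 libraries in each group and by the few reads of the transdifferentiated libraries. Of the 9 genes, the number called in alpha against beta cells was 3, and 5 with median-ratio scaling, quantile normalization or no sex term. With only the groups compared it was also 5, and fits without a transdifferentiated library repeat those estimates. The number was 7 with voom, 8 with voom and median-ratio scaling, and 2 to 4 with a beta or alpha library left out. Of all 13172 genes, limma called 5743 in the main fit, 5753 with median-ratio scaling, 5480 with quantile normalization and 5986 with no sex term. With only the groups compared limma called 6650, and with a beta or alpha library left out 3110 to 5253. Of the same genes voom called 6916, and 6973 with median-ratio scaling. In transdifferentiated against beta cells the number of the 9 was 1, where limma called 1580 of all 13172 genes. It was 0 with quantile normalization (1143 of all genes), voom (756) or no filter (877 of 26786). With only the groups compared it was also 0, but there 0 of all 13172 genes passed. It was 2 with median-ratio scaling (1780 of all genes), the letter b as a term (2036) or blocks of sex and letter (1943). With a beta or alpha library left out it was 0 to 1 (235 to 1240 of all genes). In transdifferentiated against alpha cells it was 5, and 3 with median-ratio scaling or quantile normalization, and 2 with only the groups compared, voom and median-ratio scaling or blocks of sex and letter (2 to 6 with a library left out, 2 without transdifferentiated replicate 1 or alpha replicate 3). A filter of at least 3 RPKM tested 7 of the 9 genes. The planned edgeR test is not reported, since a count model was not kept for values deposited as RPKM. A run of it with TMM scaling, not kept, had called Prlr lower in transdifferentiated than in beta cells and had not called Stat5b or Socs1 against alpha cells. voom with median-ratio scaling, added after seeing the data, gave the same calls for these genes.

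Directions reversed only in transdifferentiated against beta cells, for log2 values that were not called. Socs2 was -0.079 with quantile normalization. Stat5a was -0.246 with quantile normalization, -0.076 with median-ratio scaling, -0.096 with voom and median-ratio scaling and -0.003 with blocks, and -0.242 to 0.438 with a library left out. Ghr was -0.077 with median-ratio scaling and -0.086 with voom and median-ratio scaling, and -0.096 to 0.316 with a library left out. Jak2 was -0.140 with median-ratio scaling, -0.080 with quantile normalization, -0.019 with voom and -0.180 with voom and median-ratio scaling, and -0.239 to 0.339 with a library left out. The cause of these changes was not tested.

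The main test was not paired, since no label ties libraries of different cell groups to a pool. The numbers in the titles are not shared between cell groups, which does not exclude a shared pool. The labels do not say how many pools of each sex there were, so sex and pool cannot be told apart. The blocks of sex and letter, added after seeing the data, group libraries that no label ties to the same pool. With them Socs3 passed in alpha against beta (adjusted p = 0.000706) and in transdifferentiated against beta cells (0.00939), and Stat5b (0.0716), Socs1 (0.135) and Socs2 (0.0657) no longer passed in transdifferentiated against alpha cells.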
